A study of Mus musculus with 141 samples.

Results

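The carboxylesterases are hydrolases that split ester and amide bonds in drugs, pesticides and triacylglycerols. The 10 mouse genes described here, *Ces1c*, *Ces1d*, *Ces1e*, *Ces1f*, *Ces1g*, *Ces2a*, *Ces2c*, *Ces2e*, *Ces3a* and *Ces3b*, were taken by gene symbol from the 24423 genes of each file. RNA-seq had been done on liver, lung and kidney of 47 Collaborative Cross strains, which are recombinant inbred mouse strains bred from 8 inbred founders. There was 1 male mouse per strain, so a group was a tissue with 47 libraries, the same 47 mice gave all 3 groups, and strain and individual mouse cannot be told apart. The mice were 8 to 12 weeks old, ate the NTP 2000 diet and had breathed clean air in exposure chambers for 6 hours a day over 2 weeks. All mice were anesthetized with injected nembutal before sacrifice. Apart from that, no group carried a knockout, a transgene or a chemical treatment.

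Most carboxylesterases work inside the endoplasmic reticulum of hepatocytes, the epithelial cells that make up most of the liver. They stay there because a short signal at the end of the protein, histidine, any residue, glutamate and leucine, is caught by the KDEL receptors. In rodents *Ces1c* encodes the carboxylesterase that is secreted into blood plasma, *Ces1d* and *Ces1f* encode the triacylglycerol hydrolases TGH and TGH-2, and *Ces1e* encodes egasyn, which holds β-glucuronidase in the endoplasmic reticulum.

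All 10 genes lay on chromosome 8 of NCBIM37 (mm9), the build the authors worked on, in a pair of clusters in the GENCODE vM1 annotation. The 5 *Ces1* genes were on the minus strand between *Ces1c* at chr8:95622914-95655182 and *Ces1g* at chr8:95826268-95861207. The *Ces2* and *Ces3* genes were on the plus strand between *Ces2a* at chr8:107257903-107265530 and *Ces3b* at chr8:107607653-107617829. The last 30 coding bases before the stop codon are shown for 7 of the 10 genes, because the final 4 codons, in capitals, hold or lack the retention signal:
Ces1c: acagaccctactgaacacACAGAACACAAA
Ces1d: aggccatcccacagggaaCATGTTGAGCTC
Ces1e: aagcaactgccgacagaaCACACTGAGCTG
Ces1f: aaacaaccccagccatacCACAATGAGCTG
Ces2c: aaggcttctcaggacaagCACAGGGAGCTT
Ces3a: cagagaagcaggaaagttCCAGAGGAGCTC
Ces3b: cagagaagcaggaaagttCCAGAGGAGCTC
The codons of the retention signal closed the coding sequence of *Ces1d*, *Ces1e*, *Ces1f*, *Ces1g*, *Ces2a*, *Ces2c* and *Ces2e*. They were absent at the end of *Ces1c*. *Ces3a* and *Ces3b* were alike over all 30 bases, and their capitals lacked the histidine codon.

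Near-identical paralogs limit what reads of 50 bases can tell apart. Of the 50-base windows of the longest annotated transcript of each gene, 96.64 to 98.72% occurred at most once in the genome and in no other gene's transcript for *Ces1d*, *Ces1e*, *Ces1f*, *Ces1g* and *Ces2e*. The share was 82.52% for *Ces1c*, 81.84% for *Ces2a*, 72.81% for *Ces3b* and 69.15% for *Ces3a*. For *Ces2c* it was 29.2%, and 69.03% of its windows also occurred in another carboxylesterase transcript. The authors counted uniquely aligned reads, so reads from sequence that is alike between paralogs would be left out, and the values of *Ces2c*, *Ces3a* and *Ces3b* rest on the part of the transcript that differs. TPM levels and shares compared between members can therefore be too low for *Ces2c*, *Ces3a* and *Ces3b*. The strain genomes used for alignment can differ from this build.

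Total counts ranged from 1738046 to 42158454 per library, with a median of 9043226. Each tissue held the markers of its main cell type, with medians of the summed TPM (a value per transcript length that sums to the same total in each library) of 112000 for 6 hepatocyte genes in liver, 81020 for 5 lung epithelial genes in lung and 92000 for 5 proximal tubule genes in kidney. The lung epithelial gene *Cldn18* had a median of 0 in lung. A few libraries stood apart. The liver of CC033 had the lowest hepatocyte sum, 36690 TPM, the lung of CC015 the lowest lung epithelial sum, 18620 TPM, and the kidney of CC033 the lowest proximal tubule sum, 29870 TPM. The 5 strains that held the 2 lowest sums of a tissue's own markers (CC015, CC016, CC029, CC033 and CC055) were left out in an alternative.

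Each tissue was led by 1 carboxylesterase. In TPM, *Ces1c* was the most abundant of the 10 transcripts in all 47 livers, *Ces1d* in all 47 lungs and *Ces1f* in all 47 kidneys. *Ces1c* made up 63.2% ± 4.57 (SD, n = 47) of the summed TPM of the 10 genes in liver, *Ces1d* 92.2% ± 2.14 (SD, n = 47) in lung and *Ces1f* 63.2% ± 6.79 (SD, n = 47) in kidney. The summed TPM itself was 1340 to 7802 in liver with a median of 4612, 161.8 to 1790 in lung with a median of 926.5, and 643.3 to 3348 in kidney with a median of 1896. The lowest sums were those of the liver of CC033, the lung of CC015 and the kidney of CC004.

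**Figure D1:**
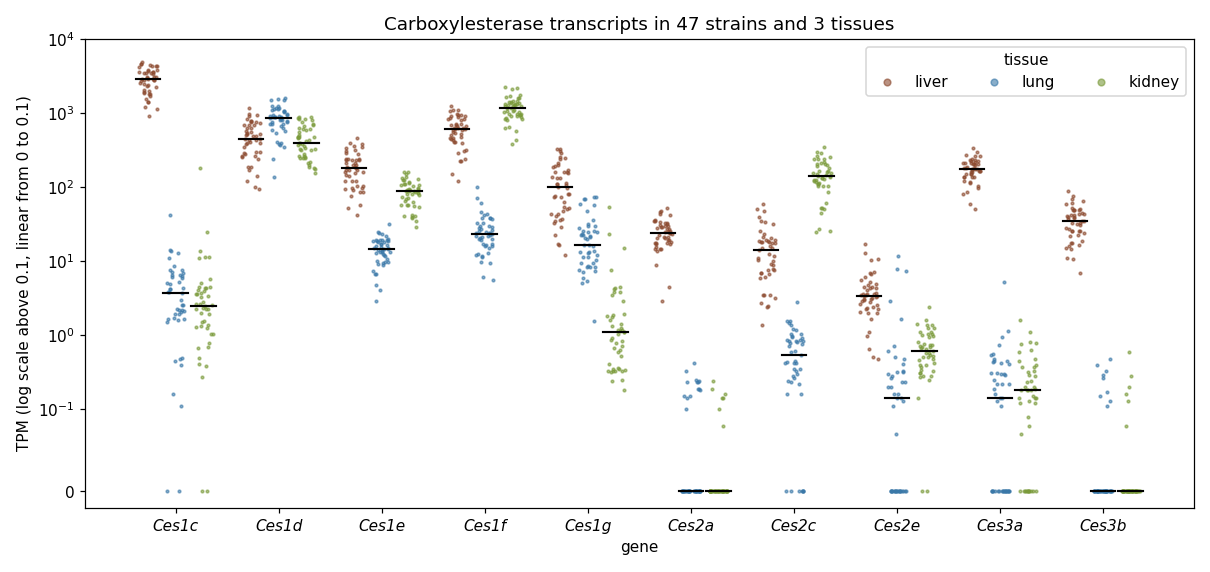
TPM of each carboxylesterase in every library (y axis, logarithmic above 0.1 and linear from 0 to 0.1), with 47 points per gene and tissue, 1 per strain, and black lines at the medians. Ces1d lay at 92.97 TPM or more in every library, while Ces2a, Ces3a and Ces3b sat at or near 0 outside the liver.

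Among the *Ces1* genes, the plasma enzyme *Ces1c* ran from 913.0 TPM (CC033) through a median of 2874 to 4870 (CC024) in liver. In lung it ran from 0 to 41.9 TPM with a median of 3.67, and in kidney from 0 to 177.8 with a median of 2.47. Its median count was 16 in both of these tissues, and 6 libraries of each had at most 3 counts. Liver values overlapped neither other tissue.

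*Ces1d*, the hydrolase that mobilises stored triacylglycerol, was the one member expressed at a like order in all 3 tissues. It ran from 92.97 through 439.6 to 1148 TPM in liver, from 137.5 through 865.5 to 1570 in lung and from 155.8 through 395.0 to 882.4 in kidney. The 3 ranges overlapped, with the lung median the highest in TPM.

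*Ces1e* ran from 42.48 through 181.3 to 458.6 TPM in liver, from 2.90 through 14.4 to 31.5 in lung and from 28.47 through 87.45 to 161.4 in kidney. *Ces1f* ran from 121.6 through 615.6 to 1242 TPM in liver, from 5.49 through 23.2 to 99.4 in lung and from 386.3 through 1182 to 2263 in kidney. For both genes lung was the low tissue, although its highest *Ces1e* value passed the lowest kidney value, and liver and kidney overlapped. *Ces1g*, also named esterase-x and known for its part in hepatic lipid metabolism, ran from 12.06 through 98.69 to 329.7 TPM in liver and from 1.55 through 16.4 to 73.6 in lung. In kidney *Ces1g* had a median of 1.09 TPM, with many libraries at only a few counts. The highest kidneys were CC006 at 53.98, CC044 at 22.84, CC005 at 14.9 and CC049 at 7.51.

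The *Ces2* genes encode esterases that favour substrates with a small acyl group. *Ces2a* ran from 2.88 (CC020) through 24.2 to 51.7 TPM in liver, and it had at most 3 counts in 46 of 47 lungs and in all 47 kidneys. *Ces2c* was a kidney transcript first, at 25.03 through 141.4 to 350.1 TPM, against 1.38 through 14.3 to 59.1 in liver and 0 through 0.54 to 2.79 in lung. *Ces2e* was low throughout, with medians of 3.39 TPM in liver, 0.14 in lung and 0.61 in kidney.

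The *Ces3* genes were liver transcripts. *Ces3a* ran from 50.4 through 175.3 to 332.1 TPM in liver, and 40 of 47 lungs and 42 of 47 kidneys had at most 3 counts. *Ces3b* ran from 6.96 through 34.2 to 88.7 TPM in liver and had at most 3 counts in every lung and kidney. Neither gene's liver range overlapped its lung or kidney range.

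The tissues were compared with limma-voom on counts scaled by TMM, a scaling that takes most genes as equal between libraries, with strain as a block. A gene was called at q of at most 0.1 (Benjamini-Hochberg over 12127 genes) with a log2 difference of 1 or more in either direction. All 10 members entered the fit. In bulk tissue, fewer cells of a type and less RNA per cell cannot be told apart.

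Against lung, 9 of 10 carboxylesterases were called higher in liver and none in lung, where 23.9% and 31.0% of all genes tested were called in those directions. *Ces1c* was higher in liver by 11.11 ± 0.16 on the log2 scale (SE, limma q = 4.5e-83). *Ces3a* and *Ces2a* were called with nearly all lungs at or under 3 counts, so their fitted differences depend on the offset. These differences, which also shifted with the scaling, ran from 7.08 to 11.06 for *Ces3a* and from 4.48 to 9.62 for *Ces2a* over 10 alternatives. *Ces1c*, *Ces3a* and *Ces2a* were higher in liver in 47 of 47 mice, and their tissue ranges did not overlap. *Ces3b* had no lung library above 3 counts, and against the value that 3 counts would have in each lung library it was at least 39.9-fold higher in the liver of every mouse, with a median of at least 173.6-fold. *Ces1f* was higher in liver by 6.13 ± 0.09, *Ces2c* by 6.00 ± 0.14, *Ces1e* by 5.18 ± 0.07, *Ces2e* by 4.81 ± 0.19 and *Ces1g* by 3.91 ± 0.19. Many lungs also had few counts of *Ces2c* and *Ces2e*. Over 10 alternatives the difference ran from 3.1 to 6.0 for *Ces2c* and from 1.7 to 5.2 for *Ces2e*. Members with more counts in lung shifted too, from 4.6 to 6.2 for *Ces1f*, from 3.6 to 5.2 for *Ces1e* and from 2.3 to 3.9 for *Ces1g*.

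*Ces1d* was the exception. It was 0.59 ± 0.09 higher in liver on the log2 scale (limma q = 1.1e-09), below the fold threshold, and higher in 38 of 47 mice in TMM-scaled CPM (counts relative to the scaled library total). In deposited TPM it was higher in lung in 39 of 47 mice. The direction turned when the scaling changed, to −0.79 with total counts and to −0.91 with log2(TPM + 1), both higher in lung. Those scalings also moved the median of all 12127 genes from −0.06 to −1.44 and −1.21, so relative to the median gene *Ces1d* stayed on the liver side. With total counts the genes called were 1186 toward liver and 7474 toward lung, against 2901 and 3763 with TMM.

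Against kidney, 8 of 10 members were called higher in liver and 1 in kidney, where 15.6% and 20.8% of all genes were called. *Ces1c* was higher in liver by 10.98 ± 0.16 on the log2 scale (limma q = 8.1e-82) and *Ces1g* by 6.84 ± 0.23. Many kidneys had few counts of *Ces1g*, and its difference ran from 5.1 to 7.1 over 10 alternatives. The fitted difference of *Ces3a*, with most kidneys at or under 3 counts, ran from 7.07 to 10.61 over 10 alternatives, and *Ces3a* was higher in liver in 47 of 47 mice. *Ces2a* and *Ces3b* had no kidney library above 3 counts. Against the value of 3 counts *Ces2a* was at least 4.35-fold higher in the liver of every mouse, with a median of at least 85.7-fold, and *Ces3b* at least 17.8-fold, with a median of at least 123.3-fold. *Ces2e* was higher in liver by 3.24 ± 0.18, *Ces1e* by 2.05 ± 0.07 and *Ces1d* by 1.02 ± 0.09. Kidneys had few counts of *Ces2e*, and its difference ran from 1.4 to 3.4 over 10 alternatives. That of *Ces1e* ran from 1.1 to 2.0. *Ces2c* went the other way, with −2.35 ± 0.09 (limma q = 9.7e-46), higher in kidney in 47 of 47 mice.

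The call of *Ces1d* against kidney sat at the threshold and was lost at 0.96 without the 5 strains with low marker sums, at 0.07 with total counts and at 0.05 with log2(TPM + 1). *Ces1f* did not pass between liver and kidney, at −0.04 ± 0.09 (limma q = 0.71) and higher in kidney in 26 of 47 mice. On log2(TPM + 1) it was −1.01 (limma q = 1.3e-11) and called higher in kidney, and the median of all genes there was −0.72.

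Between lung and kidney, 4 of 10 members were called higher in kidney and 1 in lung, where 20.6% and 25.5% of all genes were called. *Ces2c* had −8.35 ± 0.14 on the log2 scale (limma q = 2e-76), *Ces1f* −6.16 ± 0.09 and *Ces1e* −3.13 ± 0.07, each higher in kidney in 47 of 47 mice. *Ces2e* had −1.56 ± 0.19 and was higher in kidney in 39 of 47 mice. Its counts were low in both tissues. The difference was −0.28 with log2(TPM + 1), where the call was lost, and −2.03 without the strain block. *Ces1g* was higher in lung by 2.93 ± 0.23 (limma q = 1.1e-22), in 44 of 47 mice. With few counts in many kidneys, its difference ran from 2.7 to 3.7 over 10 alternatives. *Ces1c* had −0.13 ± 0.16 (limma q = 0.41), which turned to 0.13 with total counts and 0.18 with log2(TPM + 1), and *Ces1d* was 0.42 ± 0.09 higher in lung, under the fold threshold. *Ces2a*, *Ces3a* and *Ces3b* were at or near 0 in both tissues and are given no fold.

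**Figure D2:**
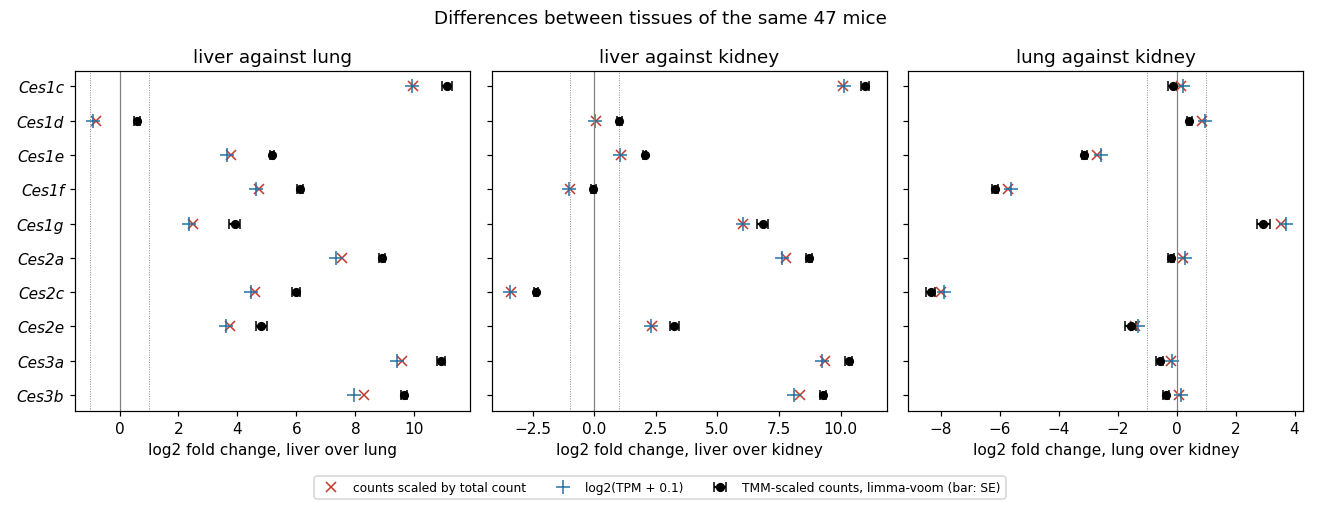
Log2 fold change between tissues (x axis) for the 10 carboxylesterases in 47 mice, from TMM-scaled counts with SE (black circles), from counts scaled by total count (crosses) and from log2(TPM + 0.1) (plus signs), with dotted lines at −1 and 1. Ces1d changes side between liver and lung with the scaling, and Ces2c lies on the kidney side of both comparisons with kidney.

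Of 10 other carboxylesterases listed, 9 were in the files and 4 passed the filter. *Ces1b*, *Ces2b*, *Ces2g* and *Ces2h* were all called higher in liver than in lung, with log2 differences of 7.23 ± 0.13, 1.97 ± 0.21, 1.71 ± 0.14 and 7.05 ± 0.44. The values of *Ces2h* and *Ces2b* rest on part of the strains. Liver *Ces2h* had a median of 0.90 TPM and a highest value of 221.8, and 41 of 47 mice had more of it in liver than lung in TMM-scaled CPM. Liver *Ces2b* was 125.4 TPM or more in 4 strains and 5.92 or less in the others, and 31 of 47 mice had more of it in liver than lung in TMM-scaled CPM, but 19 in TPM. *Ces2b* was higher in kidney than in liver (−1.94 ± 0.21), as *Ces2c* was. *Ces1a*, *Ces2d-ps*, *Ces2f*, *Ces4a* and *Ces5a* were not tested, with liver medians of 0.18, 0.25, 0, 1.5 and 0 TPM.

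Genes of related function were counted in the same fit, beside the 23.9% and 31.0% of all genes called toward liver and lung. Of 15 other esterases and lipases tested, 6 were called higher in liver and 1 in lung, with a median log2 difference of 0.68 against −0.06 over all genes (8 were not called). The arylacetamide deacetylase *Aadac* led them, at 10.41 ± 0.10, and the paraoxonase *Pon1* followed at 4.66 ± 0.10. Of the 4 partners in retention tested, the KDEL receptors *Kdelr2* and *Kdelr1* were higher in liver than in lung by 1.43 ± 0.04 and 1.13 ± 0.04, and *Kdelr3* was lower (−2.52 ± 0.10). Of 11 lipid droplet and lipoprotein genes 8 were called higher in liver and 2 in lung, with *Apob* at 10.01 ± 0.19. Of 11 targets of the xenobiotic receptors CAR and PXR, 9 were called higher in liver and 1 in lung, with *Cyp2c29* at 11.23 ± 0.14. Against kidney, where 15.6% and 20.8% of all genes were called toward liver and kidney, the counts were 7 and 2 of 15 esterases and lipases (median 0.37), 5 and 2 of 11 lipid droplet and lipoprotein genes (median 0.88), 10 and 0 of 11 CAR and PXR targets (median 6.11) and 1 and 0 of 4 retention partners. Between lung and kidney 6 esterases and lipases were called toward each tissue.

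*Ces1c* outside the liver moved with most of the 6 hepatocyte markers. Across the 47 lungs its normal scores correlated with those of albumin at r = 0.905 (two-sided permutation p = 1e-05, the smallest that 100000 permutations can give; rho = 0.901, permutation p = 1e-05, with r = 0.882 without the 2 strains farthest from the albumin median). The q over all pairs of a carboxylesterase and a gene in lung was 0.00953. Of the 6 hepatocyte markers 5 passed with *Ces1c* in lung, all but *Cyp2e1* (r = 0.478, permutation p = 0.0008, q = 0.17). The 3 genes most like *Ces1c* in lung were *Cps1* of the urea cycle (r = 0.935), the protease inhibitor *Mug1* (0.911) and *Bhmt* of methionine metabolism (0.907), genes well known in hepatocytes.

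Set against albumin, the median share of *Ces1c* lay between 3.95 and 4.70% in the 3 tissues. Its TPM was 4.70% of the albumin TPM in liver (median of 47, range 2.20 to 7.99), 4.27% in lung (0 to 9.38) and 3.95% in kidney (0 to 512.6). For *Ces1d* the same medians were 0.78%, 1117% and 783.2%. The lung of CC010 had the highest *Ces1c* value, 41.9 TPM, and also the highest value of each of the 6 hepatocyte markers, with 1170 TPM of albumin against at most 332.1 in any other lung. That library also had the highest lung values of *Ces1f* (99.4 TPM) and *Ces3a* (5.24 TPM).

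In kidney *Ces1c* correlated with albumin at r = 0.773 (two-sided permutation p = 1e-05; rho = 0.802, permutation p = 1e-05, with r = 0.741 without 2 strains; q = 0.0112). Of the 6 hepatocyte markers 4 passed, and *Ttr* (r = 0.119, permutation p = 0.422; rho = 0.091, permutation p = 0.537) and *Cyp2e1* (r = −0.149, permutation p = 0.313; rho = −0.108, permutation p = 0.466), with kidney medians of 213.4 and 3156 TPM, did not. With the summed TPM of the 6 markers *Ces1c* had r = −0.267 in kidney, which did not pass (permutation p = 0.0692, q = 0.357), and r = 0.862 in lung. The kidney of CC027 had 24.5 TPM of *Ces1c* and the highest albumin value, 550.1 TPM. The kidney of CC044 was different: it had 177.8 TPM of *Ces1c* with 34.68 TPM of albumin, which ranked 34 of 47, and its ratio of *Ces1c* to albumin was 512.6% against at most 10.04% in any other kidney. In lung the highest ratio was that of CC044 too, at 9.38% from 13 counts of *Ces1c*, with 7.34% next. In liver it was that of CC053, at 7.99%. The kidney of CC044 was next to the top for *Ces1g*, with 22.84 TPM. The part of hepatocyte RNA in the lung and kidney values of *Ces1c* was not tested.

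**Figure D3:**
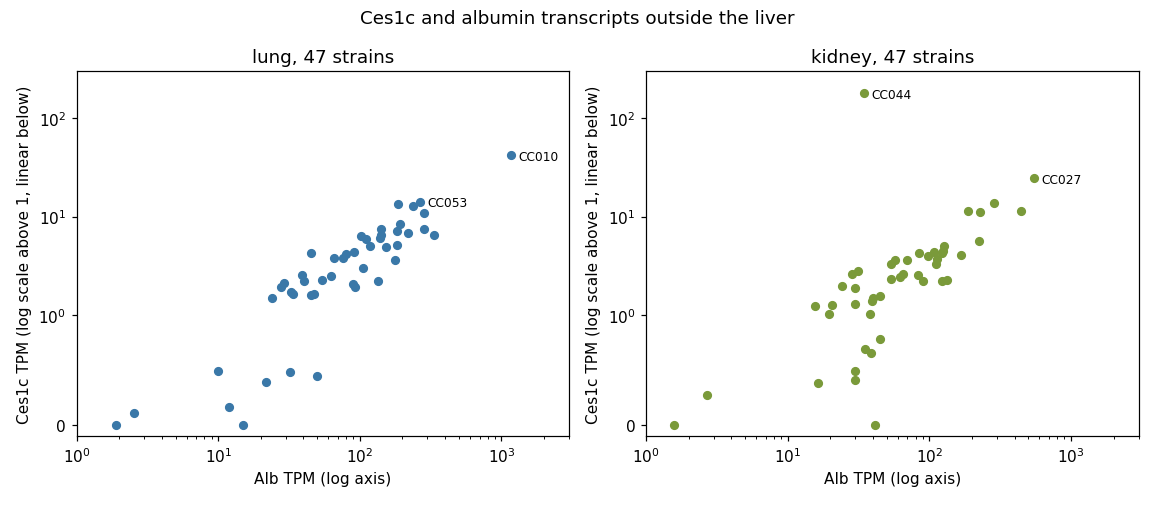
TPM of Ces1c (y axis, logarithmic above 1 and linear below) against TPM of albumin (x axis, logarithmic) in the 47 lungs and the 47 kidneys, with 1 point per strain. Most libraries rise together in both tissues, CC010 is at the top of both axes in lung, and CC044 stands far above the other kidneys at a middling albumin level.

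The members differed widely in how much strains varied. As a description, the SD across the 47 livers of log2(CPM + 1), with TMM-scaled CPM, was 1.25 for *Ces1g* and 1.11 for *Ces2c*, above those of 98.0% and 97.2% of the 9002 genes that passed the TPM filter in liver (over 1 TPM in more than 0.5 of the libraries). *Ces2e* (0.75), *Ces1e* (0.66), *Ces1d* (0.65) and *Ces3b* (0.60) lay between the 86.0 and 92.4 percentiles. *Ces1f* (0.54), *Ces2a* (0.53), *Ces3a* (0.37) and *Ces1c* (0.34) varied less, and the most abundant, *Ces1c*, was near the median SD of all genes, 0.36. In kidney *Ces2c* (0.80) was at the 96.3 percentile of 10772 genes, *Ces1c* (1.25) at 99.0, *Ces1d* (0.54) at 88.5, *Ces1e* (0.42) at 76.5 and *Ces1f* (0.41) at 75.3. In lung *Ces1g* (0.90) was at the 97.8 percentile of 12389 genes, *Ces1c* (0.88) at 97.7, *Ces1f* (0.62) at 93.1, *Ces1e* (0.40) at 75.5 and *Ces1d* (0.35) at 65.8. Low counts of *Ces1c* in lung and kidney limit its SDs and percentiles there. In TPM without TMM the SD of *Ces1c* in liver was 0.59, at the 75.1 percentile, and that of *Ces1d* in lung was 0.70, at the 80.9 percentile.

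To ask whether a strain that is high in 1 tissue is high in another, values were correlated between tissues over the 47 strains, as Pearson's r of normal scores of TMM-scaled TPM, with Benjamini-Hochberg adjustment over all genes that passed the filter in both tissues. Between liver and kidney 3 of 5 members passed with a positive r, against 22.7% of 8483 genes. Between liver and lung 1 of 5 passed, against 12.7% of 8517 genes, and between lung and kidney 1 of 4, against 16.5% of 10057 genes.

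*Ces2c* had the highest r, 0.631 between liver and kidney (two-sided permutation p = 1e-05, q = 0.000375; rho = 0.611, permutation p = 1e-05, with r = 0.588 without 2 strains), above that of 98.3% of genes. *Ces1e* was the one member that passed in all 3 pairs. Its r was 0.549 between lung and kidney (permutation p = 7e-05, q = 0.00203; rho = 0.525, permutation p = 0.00015, with r = 0.510 without 2 strains), 0.496 between liver and lung (permutation p = 0.00044, q = 0.01; rho = 0.475, permutation p = 0.0007, with r = 0.454 without 2 strains) and 0.410 between liver and kidney (permutation p = 0.00404, q = 0.0306; rho = 0.432, permutation p = 0.00247, with r = 0.408 without 2 strains). In TPM without TMM all 3 of these calls were lost, at r = 0.372, 0.277 and 0.321. *Ces1d* passed between liver and kidney, at r = 0.341 (permutation p = 0.0197, q = 0.0902; rho = 0.341, permutation p = 0.0199, with r = 0.376 without 2 strains), a call lost without the 5 strains with low marker sums (r = 0.355) and in TPM without TMM (r = 0.292), and not between lung and kidney, at r = 0.335 (permutation p = 0.022, q = 0.117; rho = 0.391, permutation p = 0.00707, with r = 0.328 without 2 strains). *Ces1f*, abundant in both liver and kidney, did not pass there (r = 0.3, permutation p = 0.041, q = 0.144; rho = 0.225, permutation p = 0.13, with r = 0.225 without 2 strains). *Ces1c* had −0.270 between liver and kidney (permutation p = 0.0671, q = 0.198; rho = −0.251, permutation p = 0.0907, with r = −0.164 without 2 strains), at the 0.9 percentile of genes. *Ces1g* had −0.051 between liver and lung (permutation p = 0.733, q = 0.884; rho = −0.1, permutation p = 0.505, with r = −0.019 without 2 strains).

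Some strains carried a distinct pattern of *Ces2* genes. The 5 strains named here were those with the highest kidney *Ces2b*, chosen after their values were seen, so they are described without a test. Kidney *Ces2b* was 335.0 TPM in CC003, 215.3 in CC035, 206.1 in CC040, 149.5 in CC011 and 146.0 in CC032, and the next kidney had 58.4. The same 5 strains held the 5 highest lung values of *Ces2b* (19.65 to 63.35 TPM, next 3.47), of *Ces2e* (1.66 to 11.55, next 0.72) and of *Ces2g* (38.72 to 142.0, next 36.41). In liver 4 of them held the highest *Ces2b* values, 125.4 to 224.5 TPM, and CC032 had 0.60.

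*Ces2c* lay at the other end in those strains. In kidney it was 52.08 TPM in CC003, 51.44 in CC040, 26.75 in CC011, 25.49 in CC035 and 25.03 in CC032, which ranked 41, 42, 45, 46 and 47 of 47. In liver it was 3.51 TPM in CC003, 3.46 in CC035, 2.49 in CC040 and 1.38 in CC011, ranked 41, 42, 45 and 47, and 9.01 in CC032, ranked 30. The sum of *Ces2b* and *Ces2c* in these 5 kidneys was 171.0 to 387.1 TPM, inside the range of 51.6 to 408.5 over all 47, whose median was 171.0. Of the windows of *Ces2b*, 4.41% occurred in another carboxylesterase, and of those of *Ces2d-ps* 71.98% did. Kidney *Ces2d-ps* ranked 2 to 6 of 47 in these 5 strains, at 4.99 to 11.53 TPM, behind CC020 at 20.63. The part of sequence shared between paralogs in the *Ces2c* values was not tested. Without these 5 strains, given as a description only, *Ces2c* had r = 0.525 between liver and kidney over 42 strains.

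**Figure D4:**
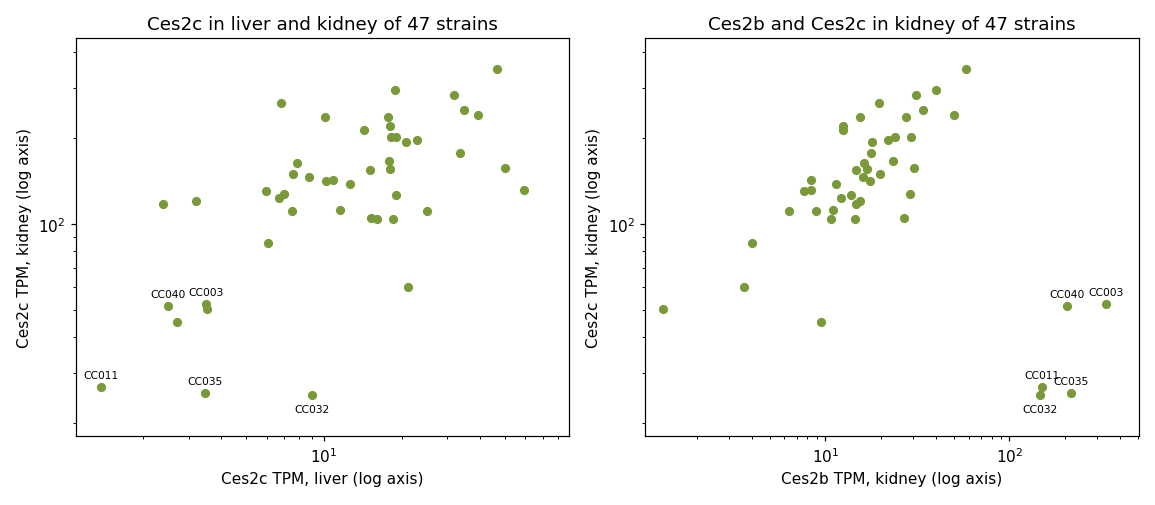
Left, TPM of Ces2c in kidney against liver of the 47 strains, and right, TPM of Ces2c against Ces2b in kidney (all axes logarithmic). The names mark the 5 kidneys highest in Ces2b, which sit at 146.0 TPM or more of Ces2b and at 52.08 TPM or less of Ces2c.

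Within a tissue, each member that passed the TPM filter was correlated across strains with every gene that passed, and q was taken over all those pairs. In liver 2 of 45 pairs of members passed with a positive r and none with a negative r, against 0.392% of 89965 pairs of a member with any gene. The median r of the 45 pairs was 0.20, and that of all pairs was 0.01. *Ces1c* and *Ces1d*, next to each other in the cluster, had r = 0.702 (two-sided permutation p = 1e-05, q = 0.0164; rho = 0.675, permutation p = 1e-05, with r = 0.675 without 2 strains). *Ces2c* and *Ces3b* had r = 0.528 (permutation p = 9e-05, q = 0.0438; rho = 0.504, permutation p = 0.00035, with r = 0.481 without 2 strains). That call was lost without the 2 farthest strains and without the 5 strains with low marker sums (r = 0.504). *Ces1f* and *Ces1g*, also neighbours, had −0.352 (permutation p = 0.0159, q = 0.342; rho = −0.402, permutation p = 0.00531, with r = −0.332 without 2 strains).

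Deposited TPM without TMM gave another picture. In liver 35 of 45 pairs of members passed, as did 67.0% of all pairs of a member with a gene, and the median r of all pairs was 0.39. Relations with marker sums and depth were adjusted over the 70 computed. With the hepatocyte marker sum of the liver libraries *Ces1c* had r = 0.308, which did not pass (permutation p = 0.0357, q = 0.347; rho = 0.338, permutation p = 0.021, with r = 0.423 without 2 strains), and *Ces1d* had r = 0.405, which did (permutation p = 0.00489, q = 0.0856; rho = 0.422, permutation p = 0.00351, with r = 0.413 without 2 strains). As residuals from a line on that sum, *Ces1c* and *Ces1d* had r = 0.678 (permutation q = 0.0231).

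In kidney 1 of 10 pairs passed, against 0.329% of 53845 pairs. *Ces1d* and *Ces1e* had r = 0.671 (two-sided permutation p = 1e-05, q = 0.0112; rho = 0.673, permutation p = 1e-05, with r = 0.701 without 2 strains). In lung none of 10 pairs passed by the permutation test, against 0.178% of 61930 pairs, with 3 pairs at an unadjusted p under 0.05 and 1 passing by Spearman's rho, and *Ces1d* with *Ces1e* had the highest r, 0.487 (permutation p = 0.00051, q = 0.153; rho = 0.536, permutation p = 0.0001, with r = 0.457 without 2 strains).

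**Figure D5:**
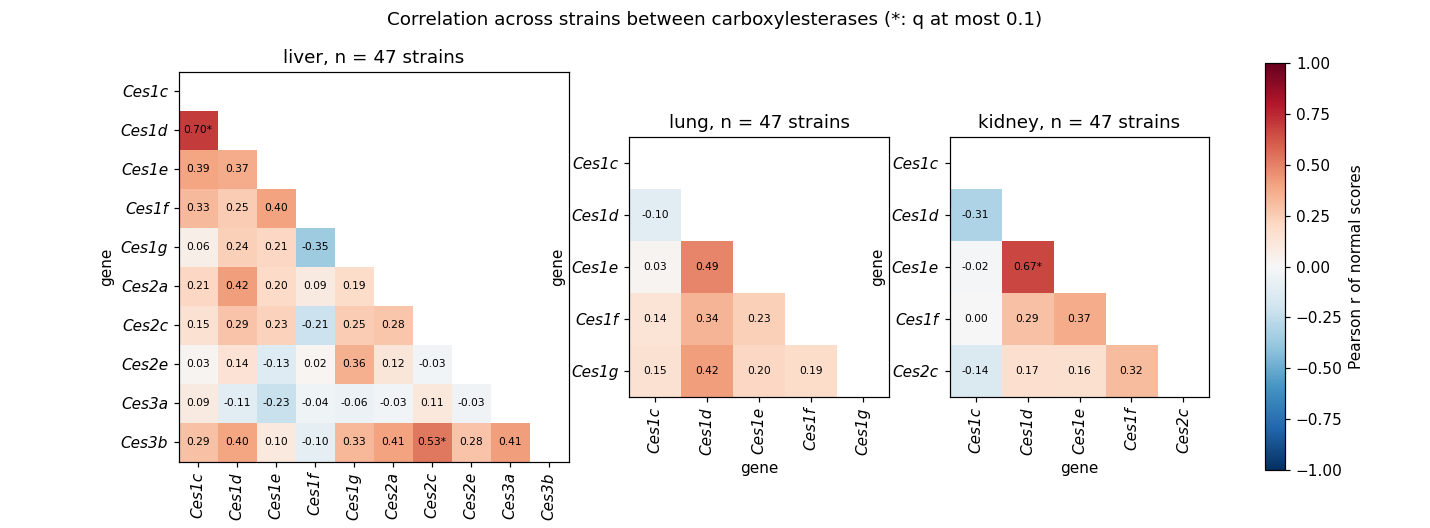
Pearson r of normal scores across 47 strains for each pair of carboxylesterases that passed the filter, in liver (10 genes), lung (5) and kidney (5), with colour from −1 (blue) to 1 (red) and an asterisk at q of at most 0.1. The asterisks fall on Ces1c with Ces1d and Ces2c with Ces3b in liver and on Ces1d with Ces1e in kidney.

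Of the liver pairs called, promoters of both genes were held for *Ces2c* and *Ces3b* only, and these are shown. Their part in the correlation was not tested. They are RefSeq windows on GRCm38.p6, plus strand, from 250 bases before to 50 after the start, at chr8:104846818-104847117 and chr8:105083505-105083804, with matches to the motifs searched on both strands in capitals:
Ces2c: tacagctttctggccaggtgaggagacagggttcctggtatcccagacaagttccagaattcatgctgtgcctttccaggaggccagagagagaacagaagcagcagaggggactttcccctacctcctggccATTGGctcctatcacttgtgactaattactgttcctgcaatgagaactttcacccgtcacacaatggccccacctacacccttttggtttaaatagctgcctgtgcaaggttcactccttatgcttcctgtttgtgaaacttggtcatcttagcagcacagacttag
Ces3b: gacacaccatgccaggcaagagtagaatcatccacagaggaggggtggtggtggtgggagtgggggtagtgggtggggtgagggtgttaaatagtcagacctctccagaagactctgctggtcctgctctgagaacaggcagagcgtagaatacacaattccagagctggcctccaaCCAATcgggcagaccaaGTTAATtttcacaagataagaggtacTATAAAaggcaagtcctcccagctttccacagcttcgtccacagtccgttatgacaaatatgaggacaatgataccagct
*Ces3b* held TATAAA with its first base at −30, GTTAAT, the start of sites of the hepatocyte factor HNF1, at −56 and CCAAT at −73. *Ces2c* held CCAAT on the minus strand at −117. Over 32851 promoter windows of the same length, 13.62% held TATAAA, 7.10% GTTAAT and 37.41% CCAAT. The other motifs searched, AGGTCA (16.26%) and CAAAGTCCA (0.47%), were in neither window. The motifs shared no base with one another in these windows, and windows were held for 7 of the 10 members.

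By the number of genes that passed, *Ces3b* and *Ces1d* led in liver. *Ces3b* passed with 128 genes at positive r and 24 at negative r, and *Ces1d* with 118 and 29. The genes most like *Ces3b* were mitochondrial, *Ndufs3* of complex I (r = 0.748), *Uqcrfs1* of complex III (0.742) and *Atp5a1* of ATP synthase (0.733), each with q = 0.0164. Those most like *Ces1d* were *Urod* of haem synthesis (0.689), 2810403A07Rik (0.679) and *Morc3* (0.653). *Urod* was also first for *Ces1c* (0.641), and *Ciapin1* had r = 0.575 with it. *Ces3a* was most like the selenoprotein *Msrb1* (0.643), the aspartate aminotransferase *Got2* (0.612) and *Sppl2b* (0.605).

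The genes most like the other members in liver had r of 0.619 or less. *Ces1f* was most like the monoamine oxidase *Maob* (0.618), *Klkb1* (0.581) and *Zfp113* (0.539), and *Ces2c* like *Bpnt1* (0.619), D5Ertd579e (0.583) and *Acadsb* (0.576). *Ces2a* was most like *Tdrd3* (0.575), *Rbbp4* (0.550) and *Siva1* (0.537). *Ces1g* was most like *Ifi30* (0.558), *Psma4* (0.550) and *Ugt2b38* (0.548). *Ces1e* was most like *Rspry1* (0.550), *Hmgn1* (0.502) and *Fam25c* (0.495). *Ces2e* was most like *Immp2l* (0.560) and the acyl-CoA synthetase *Acsl5* (0.511), and *Commd10* (0.486, q = 0.101) did not pass.

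In lung *Ces1d* was most like the aldehyde oxidase *Aox3* (r = 0.671), the carbonyl reductase *Cbr2* (0.658) and *Selenbp1* (0.620), each with q = 0.00953. *Ces1d* in lung also moved with the lung epithelial marker sum (r = 0.468, permutation p = 0.00091, q = 0.0212; rho = 0.388, permutation p = 0.00716, with r = 0.361 without 2 strains). *Ces1f* was most like *Abca13* (0.582), *T2* (0.562) and *Mgat3* (0.559), and with the summed adipocyte markers it had r = 0.383, which did not pass (permutation p = 0.0077, q = 0.108; rho = 0.398, permutation p = 0.00578, with r = 0.394 without 2 strains), whose sum ran from 1.95 to 134.0 TPM. The part of these cells in the 2 results was not tested. *Ces1e* was most like *Dync2h1* (0.565), *Nae1* (0.559) and *Bmx* (0.544). *Ces1g* was most like Gm11744 (0.574) and 4933404O12Rik (0.544), and *Tmc7* (0.517, q = 0.103) did not pass.

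In kidney *Ces1d* and *Ces1e* shared their first gene, *Map1lc3b* of autophagy (r = 0.663 and 0.586). *Ces1d* was further like *Actr1b* (0.627) and *Nat8f5* (0.609), and *Ces1e* like *Pdpr* (0.577) and *Kmo* (0.553). *Ces1f* was most like the quinone reductase *Cryz* (0.661), *Chtf8* (0.6) and *Tmem208* (0.586). *Ces2c* was most like *Klhl2* (0.610), the steroid reductase *Srd5a2* (0.593) and *Csrp2* (0.583), and it moved with the proximal tubule marker sum (r = 0.479, permutation p = 0.00069, q = 0.0212; rho = 0.426, permutation p = 0.00321, with r = 0.383 without 2 strains). *Ces1c* was most like *Vtn* (0.820), *Plg* (0.818) and *Cps1* (0.812), whose products are also made by hepatocytes.

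Genes of the listed pathways were counted among these pairs. In liver 10 of 810 pairs of a member with a listed gene, or 1.24%, passed with positive r and 3 with negative r. Over all liver pairs 0.392% passed with positive r and 0.129% with negative r. *Ces1d* passed with the triacylglycerol synthase *Dgat2* (r = 0.642, q = 0.0164), *Pon1* (0.644, q = 0.0164), *Aadac* (0.520, q = 0.0788), *Acot1* (0.498, q = 0.0978) and *Ces1b* (0.493, q = 0.0978). *Ces1c* passed with *Dgat2* (0.510, q = 0.0963) and *Pon1* (0.493, q = 0.0978). *Ces3a* was inversely related to the lipid droplet lipase *Pnpla3* (−0.593, q = 0.0164). No pair passed in liver among 130 with CAR and PXR targets, 70 with clock genes and 30 with retention partners.

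Among the male-biased genes that respond to growth hormone, the oxysterol hydroxylase *Cyp7b1* passed with *Ces2c* (0.557, q = 0.0437) and *Ces3b* (0.499, q = 0.0978), and *Ces2c* also passed with *Ces4a* (0.570, q = 0.0409). Among acute-phase genes, *Itih4* was inversely related to *Ces2a* (−0.547, q = 0.0438) and *Hamp* to *Ces2c* (−0.491, q = 0.0985). *Ces1e* and its partner *Gusb*, the β-glucuronidase gene, had r = 0.004 in liver (q = 0.996), −0.123 in lung (q = 0.874) and −0.198 in kidney (q = 0.645).

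In lung 9 of 350 pairs, or 2.57%, passed, against 0.178% of all pairs, 7 of them *Ces1c* with genes of hepatocytes such as *Fgb* (0.884) and *Cyp2c29* (0.863), and the others *Ces1f* with *Orm1* (0.522, q = 0.0781) and *Ces1d* with the clock gene *Per2* (0.550, q = 0.0442). In kidney 8 of 345, or 2.32%, passed, against 0.329% of all pairs, 6 of them with *Ces1c*, and *Ces1d* passed with the hydrolases *Bphl* (0.518, q = 0.0749) and *Cmbl* (0.509, q = 0.0917).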

How the data were processed

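RNA was sequenced after ribosomal depletion as single-end reads of 50 bases. The authors aligned the reads with STAR 2.5.3a to strain-specific pseudo-genomes of mm9, kept uniquely aligned reads and deposited RSEM expected counts and TPM per RefSeq gene; the expected counts were rounded. Labels gave tissue and strain; they do not give the sequencing batches, so no within-batch values were made. Tissues were compared with limma 3.58.1 (voom) and edgeR 4.0.16 TMM factors, strain as block, on genes over 1 CPM in at least 30% of libraries. The block pairs libraries of 1 mouse, whose deviations from the tissue means correlated at a median of 0.177 to 0.216 over the 3 tissue pairs. Correlations used rank inverse normal scores of TMM-scaled TPM (over 1 in more than 0.5 of the libraries, offset 0.375) with 100000 permutations. DESeq2 1.42.0 served as an alternative. Both tests recovered known changes in simulated data. The simulated counts had no strain effect and the simulated pairs were fewer than the real ones, so those settings were not checked. The members, gene lists and markers were chosen with earlier results of these data known. Named genes were the members, the other carboxylesterases, leading list genes, and the 3 genes most like each member, of which 1 is not reported here. The floor was 3 counts per library and covers counting error only, while SDs and SEs are over mice.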

Additional observations from a re-analysis of the deposited data

How the results depend on the processing

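Without the strain block the counts of calls did not change: 9 members higher in liver than lung, 8 and 1 for liver and kidney, 4 and 1 for kidney and lung. Of 326 alternative values of the tissue fold changes, 311 kept the call or its absence, some of them with another sign where nothing was called. *Ces1d* between liver and lung turned to −0.79 (total counts), −0.91 (log2(TPM + 1)) and −0.91 (log2(TPM + 0.1)), and *Ces2a* between lung and kidney, at the floor in both, to 0.29 with log2(TPM + 0.1). Other values not called between lung and kidney also changed sign, *Ces1c* up to 0.21 (TPM + 0.1), *Ces2a* up to 0.61 and *Ces3b* up to 0.35 (both edgeR). The call of *Ces1d* between liver and kidney was also lost with DESeq2 size factors (0.92), DESeq2 (0.93), no filter on low counts (0.96) and only the 2 tissues in the fit (0.98), and that last fit did not test *Ces2a*, *Ces2e*, *Ces3a* and *Ces3b* between lung and kidney. Both TPM scales called 2 members higher in kidney than liver. Without the filter on low counts, 6984 genes were called toward liver and 5158 toward lung, against 2901 and 3763. Members with a positive correlation between tissues fell to 0 (liver and lung), 1 (liver and kidney) and 0 (lung and kidney) in TPM without TMM, where *Ces1e* lost all 3 calls, and were 2 for lung and kidney with Spearman's rho and with log2(CPM + 1). Pairs within a tissue rose to 35 in liver, 6 in lung and 6 in kidney in TPM without TMM. The liver count was 1 without the 5 strains with low marker sums and 1 without the 2 farthest strains, where *Ces2c* with *Ces3b* was lost (r = 0.504 and 0.481). The lung count was 1 with Spearman's rho and 1 without the 5 strains (*Ces1d* with *Ces1g*, r = 0.547). Without those 5 strains *Ces1d* between liver and kidney no longer passed (r = 0.355). The causes were not tested. These strains and the adjustment for marker sums were chosen after seeing the data. Depth limits *Ces1c*, *Ces2a*, *Ces2e*, *Ces3a* and *Ces3b* outside the liver, *Ces1g* in kidney and *Ces2c* in lung. A count of 3 was a median of 0.22 CPM in lung and 0.34 CPM in kidney.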
